A study of Homo sapiens with 9 samples.

Results

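Antisense genes are transcribed from the DNA strand opposite another gene, and many carry that gene's symbol with the ending -AS1. Of the 1341 genes with such a symbol in the deposited files, 314 reached at least 3 FPKM (fragments scaled for gene length and library size) in at least 3 of the 9 libraries and are described here, with ICAM4-AS1 left out. They are 314 of 36753 Ensembl gene identifiers and carry 313 symbols, since RAET1E-AS1 stands on 2 identifiers. They were chosen by their measured FPKM, so the levels themselves are a description. The genes just inside the limit were ITFG2-AS1, RAP2C-AS1 and GATA2-AS1, with a third-highest FPKM of 3.00, 3.01 and 3.01. Just outside were BCL10-AS1, PPP1R12A-AS1 and GJD3-AS1 with 2.96, 2.93 and 2.89. All 314 passed the limit used for testing, and 9 of them reached 3 FPKM in 3 libraries of a single group only (4 in control, 3 in siSIRT6 and 2 in siKDM5C), so a difference between groups was built into how those 9 were chosen. Of these 9, SYNM-AS1, IRF1-AS1, GABARAPL1-AS1 and CDC42-AS1 are described with values and no test of the contrast that chose them. No control library reached 3 FPKM in 20 members, no siSIRT6 library in 18 and no siKDM5C library in 12. Outside the 9, these include B4GALT1-AS1, CYP1B1-AS1, DCTN1-AS1, PDLIM7-AS1 and WAC-AS1 for control, ADNP-AS1 and TM4SF19-AS1 for siSIRT6, and CERS6-AS1 and SYP-AS1 for siKDM5C, whose membership rests on the other groups. The choice of these genes favoured a difference from the group named, and their tests against it carry that limit.

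The cells were PANC-1, a cell line established from a human pancreatic cancer. The 3 groups held 3 libraries each, made 48 hours after transfection: cells given a control (siNC in the column headers), an siRNA against SIRT6, or an siRNA against KDM5C. Not given in the sources used here are the siRNA sequences, their number, and whether the replicates were separate cultures, so p-values measure a spread that may be technical. SIRT6 is a deacetylase and KDM5C a demethylase of histone tails, and the design addresses what loss of either does to the transcriptome.

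SIRT6 was 6.2, 5.17 and 7.17 FPKM in the controls, 0.795, 0.509 and 0.487 in siSIRT6, and 5.05, 4.6 and 5.39 in siKDM5C, and its change in siSIRT6 was -2.16 ± 0.12 (SE, adjusted p = 2.92e-06). KDM5C was 18, 18.4 and 18.8 FPKM in the controls, 17.9, 17.6 and 17.9 in siSIRT6, and 3.65, 3.31 and 3.89 in siKDM5C, and its change in siKDM5C was -2.07 ± 0.05 (SE, adjusted p = 8.00e-08). Each target was lowest in the 3 libraries that bear its name. The libraries held 18201413 to 26910441 reads in genes, recovered from the steps of the values. The 5 epithelial markers summed to 1091 to 1143 FPKM in the controls, 1398 to 1513 in siSIRT6 and 695 to 856 in siKDM5C, while the 3 endothelial and the 3 fibroblast markers were each under 1 FPKM in every library. Of 3 leukocyte markers in the files PTPRC and CD3E were under 1 FPKM, and with CD68 the sum was 40.6 to 54.7, 34.0 to 37.1 and 70.2 to 91.2 FPKM. The part of these shifts in the antisense values was not tested, and in bulk RNA fewer cells of a type and less RNA per cell cannot be told apart.

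An antisense RNA can share bases with the messenger RNA of the facing gene, can start from the same stretch of promoter, or can run through an intron of that gene. Some antisense RNAs are known to act on the chromatin or the messenger of their partner, and for many no function is known. Where 2 exons overlap on opposite strands, a sequenced fragment from the shared stretch is assigned to the right gene only if its strand is used. The library kit keeps the strand, but no source used here says whether the counting used it. Reads of an antisense gene and its partner in shared exons therefore cannot be told apart from the deposited values.

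A protein-coding partner on the other strand was found in GENCODE release 29 for 310 of the 314 genes. In 261 of these the partner is the gene whose symbol the antisense gene carries, and 85 genes had more than 1 partner, of which the one with the longest overlap was used. The antisense gene lay inside the sense gene in 121 pairs, the 3′ ends overlapped in 90 (tail-to-tail), the 5′ ends overlapped in 87 (head-to-head), and the sense gene lay inside the antisense gene in 12. Both genes of the pair were expressed enough to be tested in 289 pairs, with 287 different partners. Exons overlapped in 278 of the 289. In the median pair 23.9% of the antisense gene's exon bases lay in sense exons, a stretch of 300 bases in all.

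The shared stretch is the feature on which the comparison of antisense and sense values turns, so its edge is shown for 9 pairs described further on. Each line gives 30 bases of the antisense transcript from GENCODE release 29 (GRCh38), 5′ to 3′. Capitals mark the 15 bases that lie inside an annotated exon of the sense gene. Their reverse complement stands in only some annotated transcripts of that gene, from 1 of 21 for WAC and 1 of 8 for THBS1 to 10 of 11 for IRF1.
THBS1-AS1 (chr15:39588771-39588800, minus strand): gctcaggactaaccaAGCTGGAATCTCCTC
KIF1C-AS1 (chr17:5019981-5020010, minus strand): CCAGAGTGACCACCActgaatggaggggca
CD82-AS1 (chr11:44605043-44605072, minus strand): AGCTGGAGGAGGTTTctagggggaagaaga
IRF1-AS1 (chr5:132487116-132487145, plus strand): CTGCTTTGTATCGGCctagagggcaggaga
SLCO4A1-AS1 (chr20:62666561-62666590, minus strand): ccatctggccctcacCTCCCGCCGTAGCTG
OIP5-AS1 (chr15:41309253-41309282, plus strand): actgaaaaagacaaaTTGTATATTATTCAG
WAC-AS1 (chr10:28532478-28532507, minus strand): ACGCCGCGCGCCACCggccctccgcggggc
MRPL20-AS1 (chr1:1401893-1401922, plus strand): aaatgactctaaaaaCTGAAGAGTGTTTGA
BSG-AS1 (chr19:571565-571594, minus strand): gaggctggcggttacCTTTCTTGGGGAGAC
The shared run that each edge opens or closes was 84 bases long in KIF1C-AS1, 139 in MRPL20-AS1, 140 in BSG-AS1, 191 in SLCO4A1-AS1 and 251 in WAC-AS1. It was 260 bases in THBS1-AS1, 280 in CD82-AS1, 470 in OIP5-AS1 and 939 in IRF1-AS1.

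**Figure D1:**
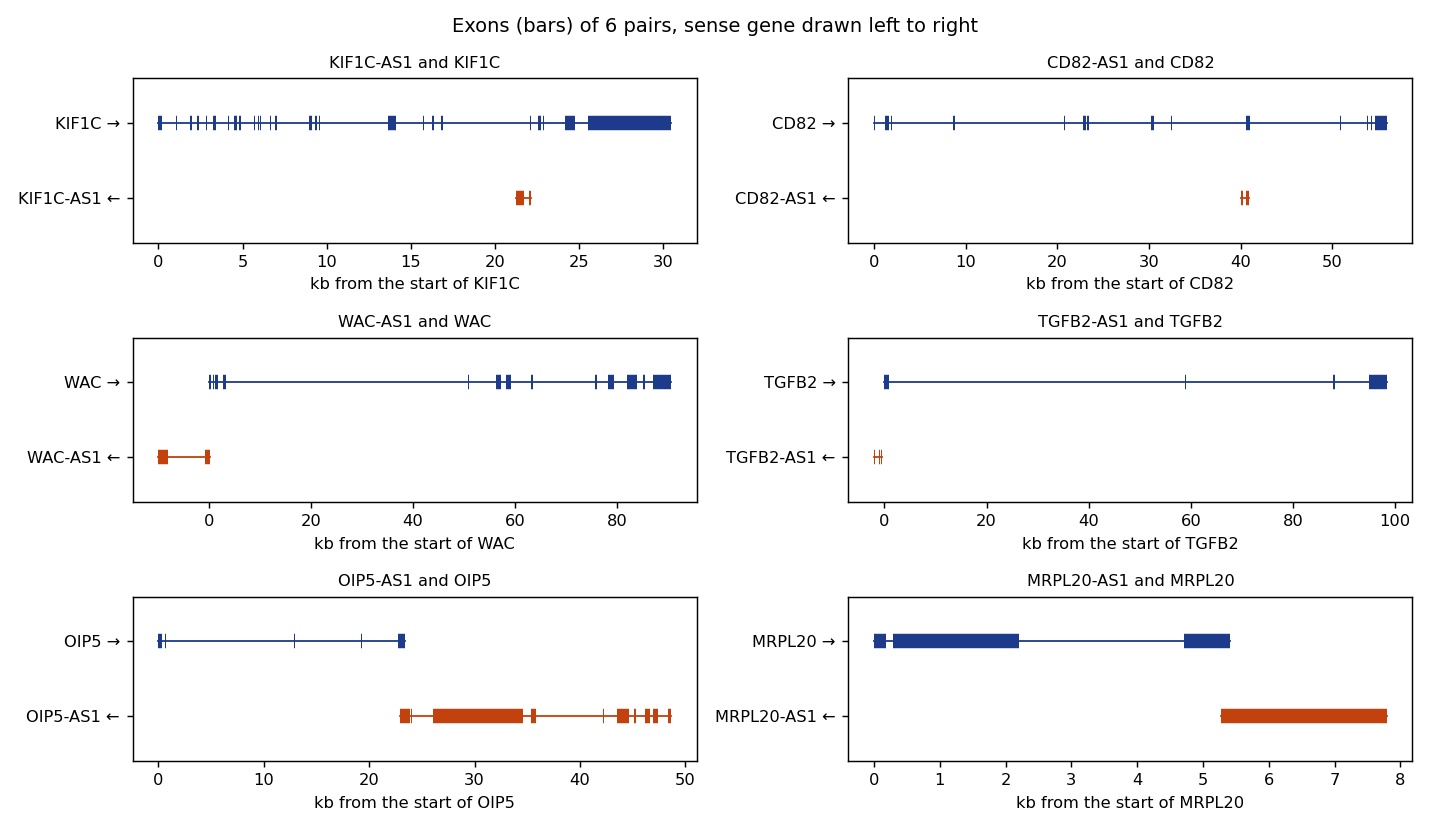
Exon maps of 6 pairs, drawn as distance in kb from the start of the sense gene, which runs from left to right (blue), with the antisense gene below it running from right to left (orange). KIF1C-AS1 and CD82-AS1 lie inside their partners, WAC-AS1 overlaps the start of WAC, OIP5-AS1 and MRPL20-AS1 overlap the ends of theirs, and TGFB2-AS1 lies upstream of TGFB2 without overlap.

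Over 9 libraries the mean level of the 314 genes ran from 1.94 to 852 FPKM with a median of 6.69. The median gene was covered by a mean of 258 reads per library, and 23 genes had a mean under 50 reads. VIM-AS1 was the highest, opposite the start of the gene for vimentin, an intermediate filament protein of mesenchymal cells. It was 741, 704 and 522 FPKM in the controls, 897, 930.00 and 969 in siSIRT6, and 715, 987 and 1199 in siKDM5C. VIM itself was 659.81, 638 and 538 FPKM in the controls, 798, 829 and 847 in siSIRT6, and 720.33, 869 and 938 in siKDM5C, so the antisense gene was listed at a higher FPKM than VIM in 7 of 9 libraries. In both genes control replicate 3 was the lowest library, and siKDM5C replicate 3 was the highest. The change of VIM-AS1 was 0.52 ± 0.19 (SE, adjusted p = 0.048) in siSIRT6 and 0.54 ± 0.19 (SE, adjusted p = 0.0407) in siKDM5C. In siSIRT6 this call was lost when any of control replicates 2 or 3, or siSIRT6 replicates 1, 2 or 3, or siKDM5C replicate 2 was left out (adjusted p from 0.0595 to 0.146), and also with no filter on low values (adjusted p = 0.121). In siKDM5C it was lost when any of control replicates 2 or 3, or siSIRT6 replicates 1, 2 or 3, or siKDM5C replicates 2 or 3 was left out (adjusted p from 0.0577 to 0.126), and also with no filter on low values (adjusted p = 0.105) and with only the compared groups fitted (adjusted p = 0.0839).

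PHLDA1-AS1, inside the gene of a pleckstrin-homology protein, followed with 355, 338 and 386 FPKM in the controls, 424, 408 and 443 in siSIRT6, and 562, 539 and 678 in siKDM5C. PHLDA1 was 81.6, 82 and 83.4 FPKM in the controls, 80.7, 78.9 and 81.1 in siSIRT6, and 97.5, 91.8 and 97 in siKDM5C, below its antisense gene in all 9 libraries. PHLDA1-AS1 rose in siKDM5C (0.72 ± 0.09 SE, adjusted p = 0.000322) and did not pass in siSIRT6 (0.24 ± 0.09 SE, adjusted p = 0.0575), and PHLDA1 stood at -0.04 ± 0.04 (SE, adjusted p = 0.515) in siSIRT6 and 0.21 ± 0.04 (SE, adjusted p = 0.00436) in siKDM5C. HNRNPK-AS1 lies within the gene of an RNA-binding protein and was 313, 301 and 305 FPKM in the controls, 242, 251 and 243 in siSIRT6, and 273, 303 and 264 in siKDM5C, against 123, 119 and 122 FPKM in the controls, 94.7, 94.1 and 94.2 in siSIRT6, and 109.90, 111 and 103 in siKDM5C for HNRNPK. All 3 siSIRT6 libraries of HNRNPK-AS1 lay below all 3 controls (-0.32 ± 0.06 SE, adjusted p = 0.00239), and the siKDM5C libraries overlapped the controls (-0.13 ± 0.06 SE, adjusted p = 0.0997).

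CD44-AS1, within the gene of the hyaluronan receptor CD44, was 190.19, 199.99 and 174 FPKM in the controls, 338, 346 and 321 in siSIRT6, and 213, 250.11 and 244 in siKDM5C. Both knockdown groups lay above the controls, with a log2 change of 0.83 ± 0.08 (SE, adjusted p = 5.54e-05) in siSIRT6 and 0.32 ± 0.08 (SE, adjusted p = 0.00857) in siKDM5C. CD44 was 98.8, 100.42 and 91.5 FPKM in the controls, 175, 176 and 173 in siSIRT6, and 109, 122 and 110.27 in siKDM5C and changed by 0.84 ± 0.06 (SE, adjusted p = 1.06e-05) and 0.23 ± 0.06 (SE, adjusted p = 0.0115). TUBA1B-AS1 covers the gene of an alpha tubulin, with 80.2% of its exon bases in TUBA1B exons, and was 151, 143 and 145 FPKM in the controls, 149.56, 143 and 157 in siSIRT6, and 200.07, 207 and 226 in siKDM5C. TUBA1B was 222, 212 and 216 FPKM in the controls, 219, 208 and 229 in siSIRT6, and 295, 301 and 329 in siKDM5C. The 2 genes kept nearly the same ratio in every library, with the siKDM5C libraries above all others in both.

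Across the 289 pairs the antisense gene stood at a median of 81.3% of the sense gene's FPKM, and above it in 116 pairs. Among the 278 pairs with shared exons, this ratio was higher where more of the antisense gene was shared, while the 11 pairs that share no exon base stood at a median of 81.3%, with 3 of the 11 above the sense gene. Where above 0 to 10% of the antisense exon bases lay in sense exons the median was 40.8% (50 pairs). It was 68.0% at 10 to 25% (90 pairs), 94.6% at 25 to 50% (77 pairs), 125% at 50 to 75% (33 pairs) and 198% above 75% (28 pairs). The antisense gene was above the sense gene in 8 of the 50 pairs of the lowest bin and in 21 of the 28 of the highest. Genes inside the sense gene had a median of 121% (116 pairs), tail-to-tail genes 75.1% (83 pairs) and head-to-head genes 58.2% (81 pairs). The part of the shared exon reads in this order was not tested.

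**Figure D2:**
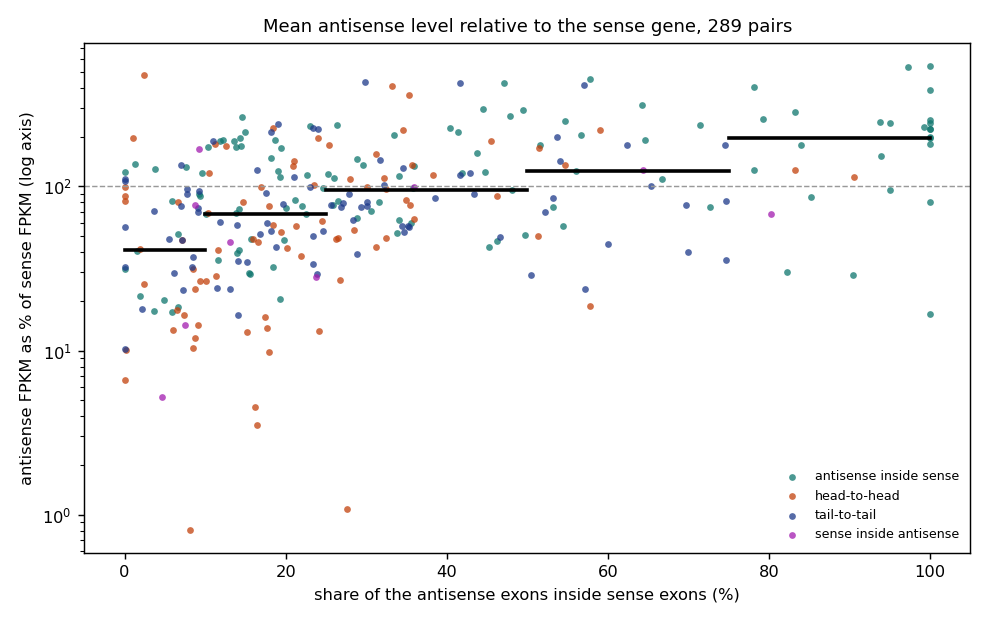
Mean FPKM over 9 libraries of the antisense gene as a percentage of the sense gene's (log axis), against the share of antisense exon bases that lie in sense exons, for 289 pairs (points, coloured by arrangement). Black bars are the medians of the 5 bins above 0%, which rise from 40.8% to 198%, and the 11 pairs at 0% have a median of 81.3%; the dashed line is an equal level.

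In siSIRT6, 88 of the 314 antisense genes rose and 66 fell (limma, Benjamini-Hochberg over 16135 genes, threshold 0.05), while 23.9% of all genes tested rose and 26.9% fell. With 154 genes called, 49.0% of the members against 50.8% of all genes tested, the share of members called lies near the background. The median change of the members was 0.02 on the log2(FPKM + 1) scale and that of all genes tested was -0.05. Among the 221 members at 3 FPKM or more in all 9 libraries, which no single group selected, 59 rose and 47 fell.

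The largest rise was that of THBS1-AS1 (chr15:39588357-39588882, minus strand), inside the gene of thrombospondin-1, a secreted glycoprotein of the matrix. It was 2.61, 3.29 and 3.26 FPKM in the controls, 20.7, 23.5 and 21.6 in siSIRT6, and 9.56, 11.7 and 12.7 in siKDM5C. Its siSIRT6 libraries were the highest and its controls the lowest, with no overlap of the 3 groups, and it rose 7.19-fold in siSIRT6 (2.50 ± 0.11 SE, adjusted p = 1.01e-06). THBS1 was 2.63, 2.47 and 2.29 FPKM in the controls, 16.7, 16.9 and 17.1 in siSIRT6, and 8.97, 9.5 and 10.1 in siKDM5C and rose in siSIRT6 by 2.37 ± 0.06 (SE, adjusted p = 2.04e-07). The antisense to sense ratio of the pair did not pass its test (0.08 ± 0.13 SE, adjusted p = 0.842 on the log2(FPKM + 0.1) scale).

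KIF1C-AS1 (chr17:5019214-5020093, minus strand), inside the gene of a kinesin motor, was 9.71, 8.27 and 8.36 FPKM in the controls, 48.6, 49.5 and 49.8 in siSIRT6, and 40.9, 43.9 and 54.8 in siKDM5C. Every knockdown library lay above every control, and KIF1C-AS1 rose 5.62-fold in siSIRT6 (2.37 ± 0.10 SE, adjusted p = 1.08e-06). KIF1C was 5.08, 5.43 and 5.76 FPKM in the controls, 26.4, 25.9 and 26.5 in siSIRT6, and 28.9, 25.7 and 28.7 in siKDM5C and rose by 2.09 ± 0.06 (SE, adjusted p = 2.78e-07). The ratio of the pair did not pass the test (0.22 ± 0.13 SE, adjusted p = 0.43).

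PRKG1-AS1 (chr10:52230742-52314507, minus strand) overlaps the end of PRKG1, a cyclic GMP dependent kinase listed at 0.0199 to 0.0668 FPKM, over a long stretch, and also overlaps DKK1, a secreted inhibitor of Wnt signalling. It was 3.64, 3.3 and 2.75 FPKM in the controls, 14.9, 15 and 15.3 in siSIRT6, and 9.79, 12.4 and 13.8 in siKDM5C, with every knockdown library above every control, and rose by 1.93 ± 0.12 (SE, adjusted p = 5.21e-06) in siSIRT6 and 1.61 ± 0.12 (SE, adjusted p = 1.36e-05) in siKDM5C. DKK1 was 39, 36.9 and 34.4 FPKM in the controls, 152, 153 and 151 in siSIRT6, and 107, 118 and 111 in siKDM5C. It rose by 2.02 ± 0.06 (SE, adjusted p = 2.78e-07) in siSIRT6 and 1.58 ± 0.06 (SE, adjusted p = 5.43e-07) in siKDM5C. DKK1 shares 6.52% of the exon bases of PRKG1-AS1, and PRKG1 shares 5.20%.

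SYNM-AS1 (chr15:98954149-99105824, minus strand) overlaps IGF1R, a growth factor receptor, in introns only, and SYNM, which encodes the intermediate filament protein synemin, with 23.3% of its exon bases. It was 1.68, 0.892 and 0.456 FPKM in the controls, 4.41, 4.4 and 4.68 in siSIRT6, and 1.87, 1.75 and 1.32 in siKDM5C, with siSIRT6 above both other groups. It reached 3 FPKM in siSIRT6 alone, which made it a member, so its log2 change of 1.497 in siSIRT6 is a description with no test. IGF1R rose by 0.39 ± 0.06 (SE, adjusted p = 0.000675) in siSIRT6. SYNM was 4.64, 4.86 and 4.79 FPKM in the controls, 14.3, 13.6 and 13.6 in siSIRT6, and 4.92, 4.71 and 4.42 in siKDM5C and rose by 1.36 ± 0.05 (SE, adjusted p = 5.14e-07), and stood at -0.02 ± 0.05 (SE, adjusted p = 0.769) in siKDM5C. The log2 change of the ratio was 1.77 against IGF1R and 0.69 against SYNM, again with no test.

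CYP1B1-AS1 and B4GALT1-AS1 both face the start of an enzyme gene, a cytochrome P450 and a galactosyltransferase. CYP1B1-AS1 was 2.31, 2.24 and 2.01 FPKM in the controls, 6.58, 6.19 and 6.99 in siSIRT6, and 4.35, 5.4 and 5.66 in siKDM5C, and rose by 1.25 ± 0.09 (SE, adjusted p = 1.14e-05) in siSIRT6, beside 1.68 ± 0.11 (SE, adjusted p = 8.38e-06) for CYP1B1. B4GALT1-AS1 was 1.73, 1.72 and 1.3 FPKM in the controls, 4.96, 5.21 and 5.02 in siSIRT6, and 2.24, 3.002 and 3.23 in siKDM5C, and rose by 1.23 ± 0.11 (SE, adjusted p = 3.79e-05), beside 1.59 ± 0.08 (SE, adjusted p = 1.56e-06) for B4GALT1. In both genes the siSIRT6 libraries were the highest, the siKDM5C libraries came next and the controls were lowest, without overlap. No control library of either reached 3 FPKM, so their choice as members favoured a rise. Changes of log2(FPKM + 1) shrink the lower gene of a pair more, so the sizes do not show which gene moved further. FARP1-AS1, inside FARP1, was 5.95, 4.22 and 5.14 FPKM in the controls, 14.2, 14.7 and 10.7 in siSIRT6, and 8.43, 13.7 and 15.8 in siKDM5C. Its knockdown libraries all lay above its controls, and it rose by 1.22 ± 0.22 (SE, adjusted p = 0.00182), beside 0.40 ± 0.07 (SE, adjusted p = 0.00105) for FARP1. The larger rise of FARP1-AS1 than of FARP1 did not pass the test of the ratio (0.79 ± 0.23 SE, adjusted p = 0.0791).

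TGFB2-AS1 (chr1:218344196-218345678, minus strand) has no overlapping partner. It starts 557 bases upstream of TGFB2, which encodes a ligand of the TGF-beta family, and runs away from it. TGFB2-AS1 was 6.51, 7.25 and 8.27 FPKM in the controls, 23.5, 20.6 and 23.2 in siSIRT6, and 11.6, 12.2 and 11.9 in siKDM5C. The siSIRT6 libraries were the highest and the controls the lowest, with a rise of 1.49 ± 0.08 (SE, adjusted p = 3.41e-06) in siSIRT6 and 0.63 ± 0.08 (SE, adjusted p = 0.000334) in siKDM5C. TGFB2 was 18.4, 18.3 and 15.1 FPKM in the controls, 36.2, 36 and 34.6 in siSIRT6, and 13.1, 15.9 and 11.9 in siKDM5C. TGFB2 rose in siSIRT6 by 1.01 ± 0.11 (SE, adjusted p = 0.000105) and fell in siKDM5C (-0.33 ± 0.11 SE, adjusted p = 0.0316), where TGFB2-AS1 rose. Here no exon is shared.

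The falls in siSIRT6 were led by SLCO4A1-AS1 (chr20:62663019-62666724, minus strand), inside the gene of an organic anion transporter. It was 35.7, 34.2 and 37.3 FPKM in the controls, 10.2, 9.69 and 9.76 in siSIRT6, and 11.5, 11.9 and 13.1 in siKDM5C. All knockdown libraries lay below all controls, and the change in siSIRT6 was -1.75 ± 0.06 (SE, adjusted p = 3.50e-07). SLCO4A1 was 53.2, 53.8 and 51.7 FPKM in the controls, 14.3, 13.9 and 14.5 in siSIRT6, and 16.5, 17.8 and 19.5 in siKDM5C and changed by -1.82 ± 0.06 (SE, adjusted p = 3.37e-07). The ratio did not pass the test (0.05 ± 0.07 SE, adjusted p = 0.809).

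IRF1-AS1 (chr5:132410636-132488702, plus strand) meets the end of IRF1, a transcription factor of the interferon response. It was 7.24, 6.55 and 6.19 FPKM in the controls, 2.63, 2.71 and 2.78 in siSIRT6, and 1.5, 1.61 and 1.86 in siKDM5C, with the controls highest, siSIRT6 next and siKDM5C lowest. It reached 3 FPKM in the controls alone, which made it a member, so its log2 change of -1.05 in siSIRT6 is a description with no test. IRF1 fell in siSIRT6 (-1.12 ± 0.05 SE, adjusted p = 1.48e-06). On the log2(FPKM + 0.1) scale the changes in siSIRT6 were -1.266 for IRF1-AS1 and -1.263 for IRF1. CD82-AS1, inside the gene of the tetraspanin CD82, was 50.8, 53.6 and 49.4 FPKM in the controls, 26.6, 20.3 and 27.7 in siSIRT6, and 15.2, 11.6 and 15.8 in siKDM5C, in the same order of groups without overlap. It changed by -1.03 ± 0.14 (SE, adjusted p = 0.00036) in siSIRT6, beside -0.95 ± 0.09 (SE, adjusted p = 4.22e-05) for CD82.

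APOBEC3B-AS1 and TMPO-AS1 fell in siSIRT6. APOBEC3B-AS1, at the end of the gene of a cytidine deaminase, was 9.38, 9.11 and 6.13 FPKM in the controls, 2.57, 3.75 and 4.19 in siSIRT6, and 7.2, 7.51 and 8.52 in siKDM5C. All 3 siSIRT6 libraries were below the 6 others, and the change was -1.03 ± 0.17 (SE, adjusted p = 0.0014), beside -1.17 ± 0.10 (SE, adjusted p = 2.80e-05) for APOBEC3B. TMPO-AS1 faces the start of a gene of the nuclear lamina and was 8.58, 8.76 and 9.1 FPKM in the controls, 4.35, 4.74 and 4.66 in siSIRT6, and 9.28, 9.11 and 9.15 in siKDM5C. It changed by -0.81 ± 0.05 (SE, adjusted p = 4.25e-06) in siSIRT6, beside -0.95 ± 0.11 (SE, adjusted p = 0.000139) for TMPO, and stood at 0.05 ± 0.05 (SE, adjusted p = 0.376) in siKDM5C. The difference between siSIRT6 and siKDM5C itself passed the test for APOBEC3B-AS1 (-0.97 ± 0.17 SE, adjusted p = 0.00278) and for TMPO-AS1 (-0.87 ± 0.05 SE, adjusted p = 7.24e-06).

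GABARAPL1-AS1 lies whole within an exon of GABARAPL1, an autophagy gene. It was 4.34, 3.51 and 4.4 FPKM in the controls, 2.16, 1.42 and 2.03 in siSIRT6, and 2.55, 2.14 and 1.57 in siKDM5C, from a mean of 17.4 reads, with all knockdown libraries below the controls. It reached 3 FPKM in the controls alone, which made it a member, so its log2 changes of -0.83 in siSIRT6 and -0.73 in siKDM5C are a description with no test. GABARAPL1 was 15, 15.1 and 17.8 FPKM in the controls, 15.2, 15.1 and 15.2 in siSIRT6, and 18.6, 16.1 and 16.5 in siKDM5C and passed neither test (-0.06 ± 0.08 SE, adjusted p = 0.509 and 0.09 ± 0.08 SE, adjusted p = 0.346). The log2 change of the ratio was -1.03 in siSIRT6 and -1.05 in siKDM5C, with no test for the same reason.

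ADNP-AS1 and GAS5-AS1 also passed the test as falls in siSIRT6, on wider spreads. ADNP-AS1 was 2.99, 3.45 and 5.77 FPKM in the controls, 1.65, 2.17 and 1.77 in siSIRT6, and 3.19, 1.55 and 1.64 in siKDM5C and changed by -0.79 ± 0.24 (SE, adjusted p = 0.0222). This call was lost when any of control replicate 3, or siSIRT6 replicates 1 or 3 was left out (adjusted p from 0.0608 to 0.0666), and also with no filter on low values (adjusted p = 0.0583). No siSIRT6 library of ADNP-AS1 reached 3 FPKM, so its choice as a member favoured a fall. By length of overlap its partner is DPM1, with no shared exon and a change of 0.10 ± 0.09 (SE, adjusted p = 0.416). ADNP, a zinc finger gene that shares 13.1% of its exon bases, changed by -0.45 ± 0.06 (SE, adjusted p = 0.00031). GAS5-AS1, which lies opposite the non-coding gene GAS5 and has no coding partner, was 5.94, 4.19 and 7.7 FPKM in the controls, 2.87, 2.99 and 3.06 in siSIRT6, and 7.85, 4.45 and 3.75 in siKDM5C and changed by -0.77 ± 0.24 (SE, adjusted p = 0.0267). Its control and siKDM5C libraries were scattered while the siSIRT6 libraries lay close together, and its call was lost when any of control replicates 1 or 3, or siSIRT6 replicates 1, 2 or 3 was left out (adjusted p from 0.0605 to 0.0859), and also with no filter on low values (adjusted p = 0.0681).

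In siKDM5C, 92 of the 314 antisense genes rose and 61 fell, while 25.6% of all genes tested rose and 25.9% fell. The 153 called are 48.7% of the members, against 51.5% of all genes tested. The median change of the members was 0.05 and that of all genes tested was -0.02. Among the 221 members at 3 FPKM or more in all 9 libraries, 63 rose and 43 fell. The 2 knockdowns share their 3 control libraries, so values are set side by side and no agreement between them is drawn.

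KIF1C-AS1, PRKG1-AS1 and THBS1-AS1 again had the largest rises, by 2.27 ± 0.10 (SE, adjusted p = 1.19e-06), 1.61 ± 0.12 (SE, adjusted p = 1.36e-05) and 1.599 ± 0.11 (SE, adjusted p = 9.49e-06). FARP1-AS1 rose by 1.13 ± 0.22 (SE, adjusted p = 0.00263) and CYP1B1-AS1 by 0.94 ± 0.09 (SE, adjusted p = 5.51e-05). Their partners KIF1C, THBS1, FARP1 and CYP1B1 rose by 2.16 ± 0.06 (SE, adjusted p = 1.26e-07), 1.604 ± 0.06 (SE, adjusted p = 4.86e-07), 0.43 ± 0.07 (SE, adjusted p = 0.000715) and 0.99 ± 0.11 (SE, adjusted p = 0.000149). Between the knockdowns, the difference passed the test for THBS1-AS1 (0.90 ± 0.11 SE, adjusted p = 0.000333, siSIRT6 minus siKDM5C) and did not for KIF1C-AS1 (0.09 ± 0.10 SE, adjusted p = 0.514).

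Another 3 genes head-to-head with their partners were among the largest rises in siKDM5C. ILRUN-AS1 was 11.1, 11.5 and 9.59 FPKM in the controls, 17.8, 17.2 and 18.2 in siSIRT6, and 20.7, 21.6 and 27.3 in siKDM5C, lowest in the controls and highest in siKDM5C. It rose by 1.04 ± 0.10 (SE, adjusted p = 7.53e-05), and ILRUN, a regulator of innate immune signalling, by 1.07 ± 0.06 (SE, adjusted p = 2.16e-06). DCTN1-AS1 was 2.46, 2.28 and 2.72 FPKM in the controls, 4.48, 4.02 and 4.77 in siSIRT6, and 6.13, 4.98 and 6.49 in siKDM5C in the same order, and rose by 0.97 ± 0.10 (SE, adjusted p = 6.70e-05), beside 1.07 ± 0.05 (SE, adjusted p = 1.90e-06) for the dynactin gene DCTN1. PDLIM7-AS1 was 1.77, 2.42 and 0.37 FPKM in the controls, 3.51, 2.62 and 2.74 in siSIRT6, and 3.38, 3.86 and 4.75 in siKDM5C, from a mean of 25.3 reads, with control replicate 3 far below the other controls. It rose by 1.08 ± 0.30 (SE, adjusted p = 0.0151), beside 0.56 ± 0.10 (SE, adjusted p = 0.00175) for PDLIM7, an actin-associated gene with which it shares no exon base. Without control replicate 3 the change was 0.69, and the call of PDLIM7-AS1 was lost when siKDM5C replicate 3 was left out (adjusted p = 0.053). No control library of DCTN1-AS1 or PDLIM7-AS1 reached 3 FPKM, so their choice as members favoured a rise.

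CD82-AS1 fell the furthest in siKDM5C (-1.79 ± 0.14 SE, adjusted p = 1.69e-05, with CD82 at -1.65 ± 0.09 SE, adjusted p = 2.16e-06). SLCO4A1-AS1 (-1.48 ± 0.06 SE, adjusted p = 6.97e-07) followed, with SLCO4A1 at -1.51 ± 0.06 (SE, adjusted p = 6.97e-07). IRF1-AS1, a member through the controls alone, stood at -1.53 with no test, and IRF1 at -1.77 ± 0.05 (SE, adjusted p = 1.63e-07). On the log2(FPKM + 0.1) scale the 2 were -1.95 and -2.08. HMGN3-AS1, opposite the start of a nucleosome-binding gene, was 9.32, 9.9 and 7.67 FPKM in the controls, 5.73, 6.1 and 6.04 in siSIRT6, and 2.81, 3.54 and 3.53 in siKDM5C. The 3 groups did not overlap, and the changes in siKDM5C were -1.21 ± 0.10 (SE, adjusted p = 2.52e-05) for HMGN3-AS1 and -1.37 ± 0.06 (SE, adjusted p = 6.97e-07) for HMGN3. On the log2(FPKM + 0.1) scale these were -1.417 and -1.415. ALDH1A3-AS1 meets the end of the gene of a retinaldehyde dehydrogenase and was 17.9, 17.6 and 17 FPKM in the controls, 11.8, 11.8 and 12.1 in siSIRT6, and 7.54, 7.52 and 7.8 in siKDM5C. Its replicates lay within 1 FPKM of each other in every group, and it changed by -1.10 ± 0.04 (SE, adjusted p = 6.13e-07), beside -1.19 ± 0.04 (SE, adjusted p = 3.68e-07) for ALDH1A3.

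CERS6-AS1, SMAD1-AS1 and SYP-AS1 were lower in siKDM5C, while their siSIRT6 libraries overlapped the controls. CERS6-AS1, which shares 69.7% of its exon bases with the ceramide synthase gene CERS6, was 5.86, 6.27 and 4.96 FPKM in the controls, 5.8, 5.68 and 5.44 in siSIRT6, and 2.004, 2.63 and 1.75 in siKDM5C. It changed by -1.10 ± 0.11 (SE, adjusted p = 7.05e-05) in siKDM5C, and CERS6 by -1.21 ± 0.10 (SE, adjusted p = 2.54e-05). SMAD1-AS1 was 9.37, 14.7 and 11.8 FPKM in the controls, 9.83, 11.8 and 9.27 in siSIRT6, and 6.86, 3.26 and 5.27 in siKDM5C, and changed by -1.10 ± 0.23 (SE, adjusted p = 0.00379), beside -0.87 ± 0.08 (SE, adjusted p = 5.66e-05) for the BMP signal transducer SMAD1. SYP-AS1 was 3.35, 3.97 and 4.25 FPKM in the controls, 3.19, 4.87 and 3.02 in siSIRT6, and 1.84, 0.798 and 1.82 in siKDM5C, and changed by -0.99 ± 0.20 (SE, adjusted p = 0.00382), beside -0.47 ± 0.12 (SE, adjusted p = 0.0113) for the synaptic vesicle gene SYP. The difference between siSIRT6 and siKDM5C passed the test in each of the 3, at 1.09 ± 0.11 (SE, adjusted p = 0.000129) for CERS6-AS1, 0.92 ± 0.23 (SE, adjusted p = 0.0121) for SMAD1-AS1 and 0.93 ± 0.20 (SE, adjusted p = 0.00739) for SYP-AS1. No siKDM5C library of CERS6-AS1 or SYP-AS1 reached 3 FPKM, so their choice as members favoured a fall in siKDM5C.

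**Figure D3:**
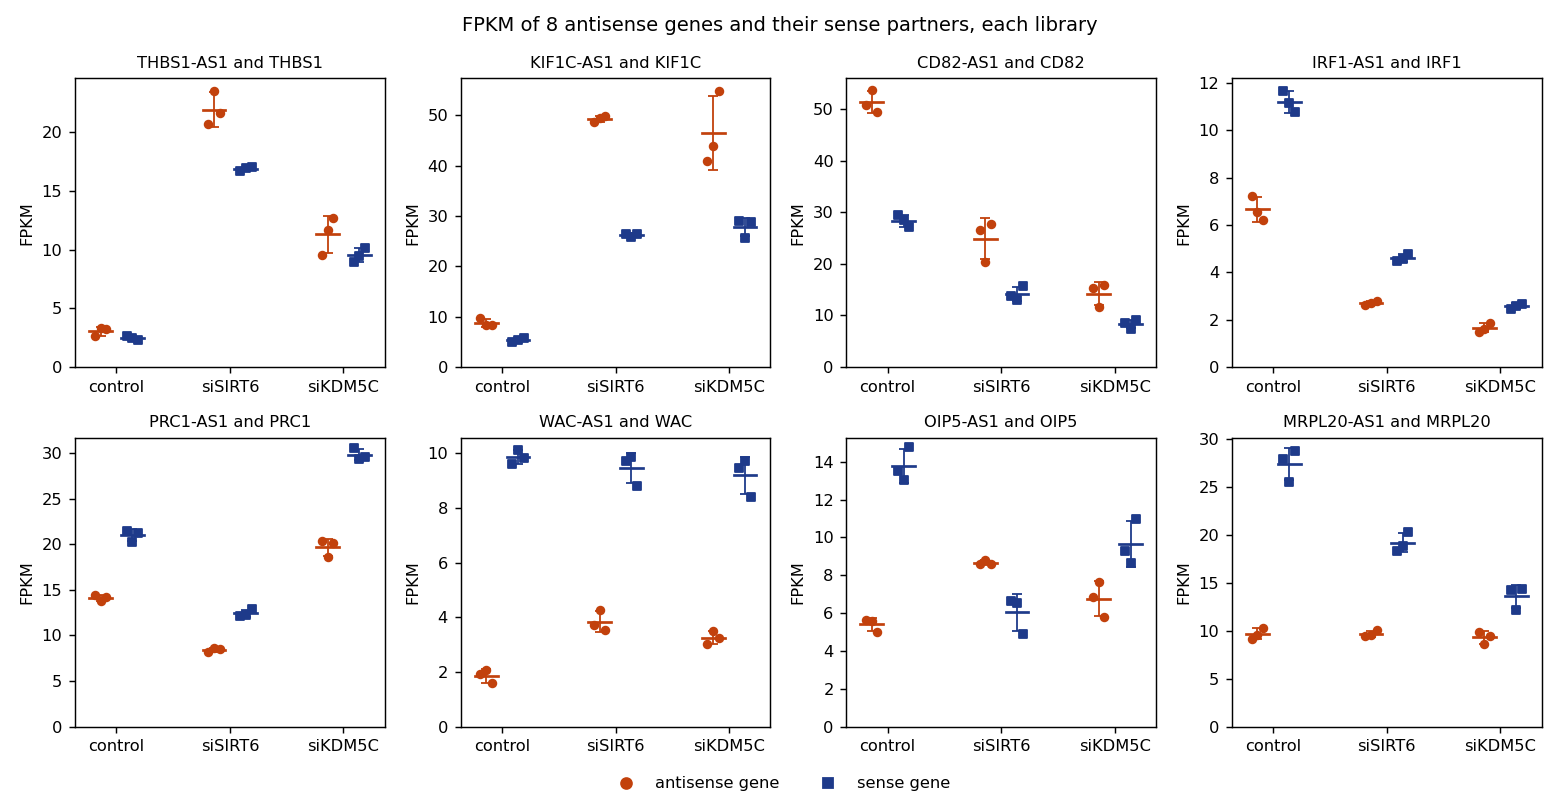
FPKM of 8 antisense genes (orange circles) and their sense genes (blue squares) in each of the 9 libraries. Each group of 3 has its mean (bar) and SD. The sense gene drawn for PRC1-AS1 is PRC1, the gene it is named after. In THBS1, KIF1C, CD82, IRF1 and PRC1 both genes of the pair move the same way; WAC-AS1 rises where WAC passed no test, OIP5-AS1 rises where OIP5 falls, and MRPL20 falls where MRPL20-AS1 passed no test.

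Tested directly against each other, siSIRT6 and siKDM5C differed for 108 of the 314 antisense genes, 54 higher in siSIRT6 and 54 higher in siKDM5C, where 18.6% and 21.3% of all genes tested were called in these directions and 39.9% in all. In 6 of the 314 genes the calls against control were in opposite directions in the 2 knockdowns, and the 4 with the largest changes follow. The share of all genes tested with opposite calls is not given here. The count of 6 is therefore not read as a result about antisense genes. PRC1-AS1 overlaps PRC1, which encodes a protein that bundles microtubules of the dividing spindle. It was 14.4, 13.8 and 14.2 FPKM in the controls, 8.2, 8.59 and 8.51 in siSIRT6, and 20.3, 18.6 and 20.1 in siKDM5C. All siSIRT6 libraries lay below and all siKDM5C libraries above the controls, with changes of -0.68 ± 0.05 (SE, adjusted p = 1.35e-05) and 0.45 ± 0.05 (SE, adjusted p = 0.000132). PRC1 was 21.5, 20.3 and 21.2 FPKM in the controls, 12.1, 12.3 and 12.9 in siSIRT6, and 30.5, 29.3 and 29.6 in siKDM5C, in the same order of groups. PRC1 changed by -0.71 ± 0.05 (SE, adjusted p = 7.36e-06) and 0.49 ± 0.05 (SE, adjusted p = 5.86e-05). In the correlations and ratio tests the partner of PRC1-AS1 was ENSG00000284946, a coding gene with the same overlap of 22280 bases. ENSG00000284946 changed by -0.63 (adjusted p = 9.59e-06) in siSIRT6 and 0.41 (adjusted p = 9.69e-05) in siKDM5C.

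TM4SF19-AS1 was 3.01, 3.02 and 3.09 FPKM in the controls, 2.47, 1.92 and 1.44 in siSIRT6, and 4.22, 4.91 and 4.67 in siKDM5C, again with siSIRT6 below and siKDM5C above the controls. It changed by -0.47 ± 0.12 (SE, adjusted p = 0.00926) in siSIRT6 and by 0.47 ± 0.12 (SE, adjusted p = 0.00928) in siKDM5C. No siSIRT6 library of TM4SF19-AS1 reached 3 FPKM, so its choice as a member favoured a fall in siSIRT6. Its partner of longest overlap is a readthrough gene, TM4SF19-DYNLT2B, and the tetraspan gene TM4SF19 itself changed by -0.59 ± 0.12 (SE, adjusted p = 0.004) and 0.56 ± 0.12 (SE, adjusted p = 0.00518). DLGAP4-AS1 was 9.66, 9.46 and 10.6 FPKM in the controls, 7.31, 7.68 and 7.64 in siSIRT6, and 13.3, 14.3 and 14 in siKDM5C and changed by -0.35 ± 0.05 (SE, adjusted p = 0.000925) and 0.45 ± 0.05 (SE, adjusted p = 0.000229), while DLGAP4 changed by -0.34 ± 0.05 (SE, adjusted p = 0.000815) and 0.45 ± 0.05 (SE, adjusted p = 0.000163). DNMBP-AS1 was 12.1, 11.5 and 11.6 FPKM in the controls, 8.96, 8.98 and 9.35 in siSIRT6, and 14.9, 14.6 and 15.6 in siKDM5C and changed by -0.33 ± 0.05 (SE, adjusted p = 0.000505) and 0.33 ± 0.05 (SE, adjusted p = 0.000498). DNMBP, which encodes a scaffold protein that binds dynamin, changed by -0.42 ± 0.04 (SE, adjusted p = 8.26e-05) and 0.15 ± 0.04 (SE, adjusted p = 0.0186). In all 4 genes the 3 groups did not overlap. The remaining genes of the 6, named after their values were seen, are BMF-AS1 (0.23 ± 0.06 SE, adjusted p = 0.0106 in siSIRT6 and -0.47 ± 0.06 SE, adjusted p = 0.000264 in siKDM5C) and ELF3-AS1 (0.19 ± 0.06 SE, adjusted p = 0.0205 and -0.44 ± 0.06 SE, adjusted p = 0.000265), which rose in siSIRT6 and fell in siKDM5C.

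The changes of antisense and sense genes were close in most pairs. Across the 289 pairs, the changes of log2(FPKM + 0.1) in siSIRT6 had a Pearson correlation of 0.847 and a Spearman correlation of 0.863, and 248 pairs (85.8%) had the same sign. In siKDM5C the values were 0.854 and 0.844, with 246 pairs of the same sign. These are descriptions across pairs of genes from the same 9 libraries, in which pairs are not independent replicates and both genes can share reads. The 2 genes of a pair differed by less than 0.25 in 225 of the 289 pairs in siSIRT6 and in 218 in siKDM5C, and by less than 0.5 in 266 and 260. The median difference was 0.0998 in siSIRT6 and 0.119 in siKDM5C, beside median absolute changes of the antisense genes of 0.303 and 0.316.

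The nearest coding gene that does not overlap the antisense gene was the comparison for shared position. Against that neighbour the correlation of the antisense changes was 0.143 in siSIRT6 and 0.211 in siKDM5C, and 148 and 147 of the 289 had the same sign. The other 1508 pairs of a non-coding gene with a facing coding gene, which lie outside the 314, gave correlations of 0.733 and 0.763.

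**Figure D4:**
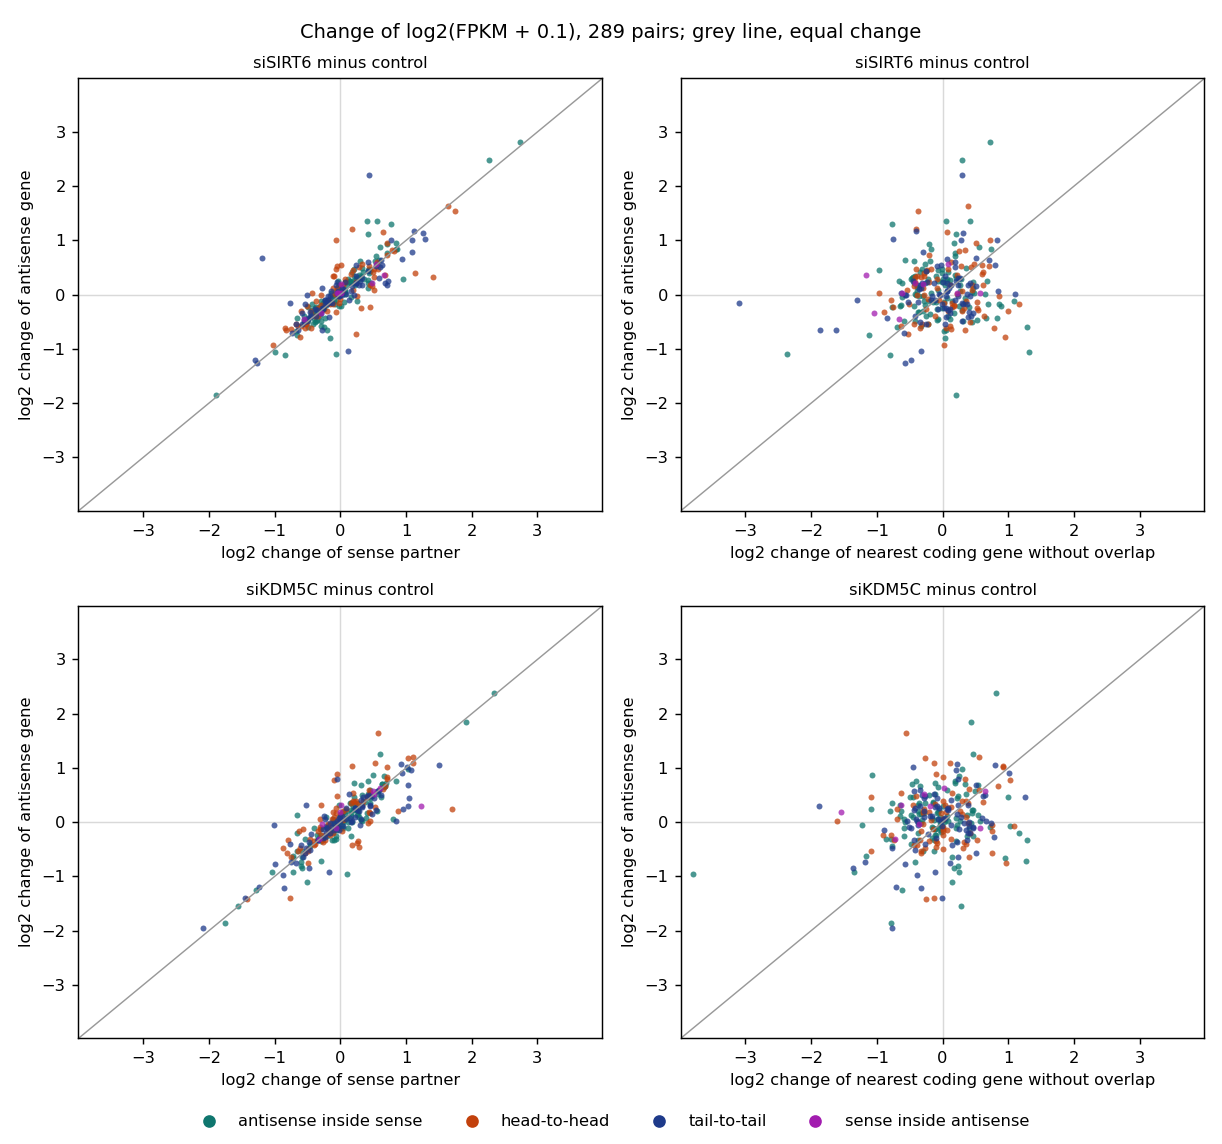
Change of the antisense gene (vertical axes) against the change of its sense partner (left) and of the nearest coding gene without overlap (right), in siSIRT6 (top) and siKDM5C (bottom), for 289 pairs on the log2(FPKM + 0.1) scale. On the left the points lie along the grey line of equal change (correlations of 0.847 and 0.854), and on the right they form a round cloud (0.143 and 0.211).

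The deviation of each library from its group mean, over 289 pairs and 9 libraries, had a correlation of 0.557 between antisense and sense gene and of 0.0836 between antisense gene and neighbour. The values for antisense and sense were 0.430 in control, 0.790 in siSIRT6 and 0.455 in siKDM5C. These are Pearson correlations, and the Spearman correlation of antisense and sense over all 9 libraries was 0.449. In the other 1508 pairs the Pearson values were 0.343 over all libraries, 0.367 in control, 0.262 in siSIRT6 and 0.371 in siKDM5C. The Spearman value of those pairs over all 9 libraries was 0.393. Deviations between replicates are not part of the knockdown comparison, and they are given here as a description from the same libraries.

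By arrangement, genes inside the sense gene had correlations of 0.926 in siSIRT6 and 0.915 in siKDM5C (116 pairs), tail-to-tail genes 0.770 and 0.881 (83 pairs), and head-to-head genes 0.80 and 0.754 (81 pairs). The 9 pairs with the sense gene inside had 0.922 and 0.687. By shared exon bases, the 50 pairs with above 0 to 10% had 0.761 and 0.749, and the 90 pairs with 10 to 25% had 0.922 and 0.932. At 25 to 50% the values were 0.885 and 0.856, at 50 to 75% they were 0.907 and 0.915, and above 75% they were 0.925 and 0.863. The 11 pairs that share no exon base had Pearson correlations of 0.394 and 0.479 and Spearman correlations of 0.627 and 0.355. Of these 11, 10 and 8 had the same sign. They include SYNM-AS1 set against IGF1R and ADNP-AS1 set against DPM1, whose other partners SYNM and ADNP do share exon bases. SYNM-AS1 is also a member through siSIRT6 alone. The part of shared reads in these values was not tested.

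Set side by side by their calls, 78 antisense genes of the pairs rose in siSIRT6, and the sense gene rose in 61 of them, fell in 1 and did not pass in 16. Of 62 that fell, the sense gene fell in 59 and did not pass in 3. In siKDM5C, 83 antisense genes rose, with the sense gene rising in 73, falling in 1 and not passing in 9. Of 56 that fell, the sense gene fell in 50, rose in 1 and did not pass in 5. In the other direction, the sense gene rose in 89 pairs and fell in 93 in siSIRT6, and the antisense gene did not pass in 28 and 33 of these pairs.

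The antisense to sense ratio was tested in each pair, which asks whether the 2 genes changed unequally. In siSIRT6 it changed in 18 of the 289 pairs, rising in 10 and falling in 8, against 7.07% of all 1797 pairs tested, 2.89% rising and 4.17% falling. In siKDM5C it changed in 24 pairs, rising in 10 and falling in 14, against 7.62%, with 4.23% and 3.39% in the 2 directions. Between the knockdowns it differed in 7 pairs, 5 higher and 2 lower in siSIRT6, against 4.17%, with 1.34% and 2.84%. The shares of members called against control, 6.23% and 8.30%, lie near the background. The calls include 3 members in siSIRT6 and 2 in siKDM5C that were chosen through a single group. Of the 18 pairs called in siSIRT6, 9 were head-to-head, 6 tail-to-tail and 3 inside the sense gene, and of the 24 in siKDM5C 11, 8 and 4, with 1 sense gene inside. The median shared part of the exons was 8.34% in the called pairs in siSIRT6, against 25.3% in the others, and 8.66% against 24.6% in siKDM5C.

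OIP5-AS1 (chr15:41283990-41309737, plus strand), a long non-coding RNA also known as cyrano, overlaps the end of OIP5, which acts in loading histones at centromeres. OIP5-AS1 was 5.66, 5.58 and 5.02 FPKM in the controls, 8.6, 8.82 and 8.59 in siSIRT6, and 6.86, 7.63 and 5.82 in siKDM5C. OIP5 was 13.5, 13.1 and 14.8 FPKM in the controls, 6.64, 6.55 and 4.92 in siSIRT6, and 9.29, 8.64 and 11 in siKDM5C. The antisense gene was lowest and the sense gene highest in the controls, so the order of the groups was turned around. OIP5-AS1 rose by 0.59 ± 0.09 (SE, adjusted p = 0.000567) in siSIRT6, where OIP5 changed by -1.08 ± 0.12 (SE, adjusted p = 0.000118), and the ratio rose by 1.86 ± 0.19 (SE, adjusted p = 0.00113). In siKDM5C the values were 0.27 ± 0.09 (SE, adjusted p = 0.0271) for OIP5-AS1, -0.48 ± 0.12 (SE, adjusted p = 0.00873) for OIP5 and 0.82 ± 0.19 (SE, adjusted p = 0.0347) for the ratio. The siKDM5C call of OIP5-AS1 was lost when any of control replicates 2 or 3, or siKDM5C replicates 1 or 2 was left out (adjusted p from 0.0517 to 0.0844), and also with no filter on low values (adjusted p = 0.0561) and with only the compared groups fitted (adjusted p = 0.069). The siKDM5C call of the ratio was lost when any of control replicates 1, 2 or 3, or siSIRT6 replicates 1 or 2, or siKDM5C replicates 1 or 2 was left out (adjusted p from 0.0509 to 0.0999), and also with only the compared groups fitted (adjusted p = 0.0723). The pair shares 3.71% of the antisense exon bases.

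OIP5-AS1 and TGFB2-AS1 start outside the exons of the gene they are named after, so their own start windows are shown, from RefSeq (GRCh38.p14), 250 bases before to 50 after the annotated start, 5′ to 3′. Capitals mark matches, on either strand, to 3 motifs common in promoters: the CAAT box searched as CCAAT, the GC box searched as GGGCGG and the TATA box searched as TATAAA. No match in these windows overlapped another.
OIP5-AS1 (chr15:41283740-41284039, plus strand): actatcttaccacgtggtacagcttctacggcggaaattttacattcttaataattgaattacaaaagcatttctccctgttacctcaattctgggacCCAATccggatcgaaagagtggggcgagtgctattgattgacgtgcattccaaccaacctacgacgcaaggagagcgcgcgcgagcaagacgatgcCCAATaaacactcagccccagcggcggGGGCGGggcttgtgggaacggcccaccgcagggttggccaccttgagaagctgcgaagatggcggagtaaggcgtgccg
TGFB2-AS1 (chr1:218345629-218345928, minus strand): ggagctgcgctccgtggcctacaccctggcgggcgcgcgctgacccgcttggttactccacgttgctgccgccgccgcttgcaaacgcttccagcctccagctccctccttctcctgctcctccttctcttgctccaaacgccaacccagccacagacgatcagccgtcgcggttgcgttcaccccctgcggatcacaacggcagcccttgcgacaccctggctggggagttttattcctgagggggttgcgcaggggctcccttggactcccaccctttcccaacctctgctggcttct
The window of OIP5-AS1 held 2 matches to the CAAT box, 1 to the GC box and none to the TATA box. The window of TGFB2-AS1 held no match to these letters. Among all 35116 windows of the table, 34.6% held the CAAT box, 45.0% the GC box and 11.5% the TATA box. A window was found for 212 of the 313 member symbols, of which 62 held the CAAT box (29.2%), 108 the GC box (50.9%) and 16 the TATA box (7.55%).

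WAC-AS1 (chr10:28522652-28532743, minus strand) faces the start of WAC, a gene linked to transcription and histone ubiquitination. WAC-AS1 was 1.91, 2.09 and 1.58 FPKM in the controls, 3.72, 4.28 and 3.52 in siSIRT6, and 3.03, 3.51 and 3.24 in siKDM5C. Every knockdown library lay above every control, and WAC-AS1 rose by 0.76 ± 0.09 (SE, adjusted p = 0.000184) and 0.58 ± 0.09 (SE, adjusted p = 0.000831). No control library of WAC-AS1 reached 3 FPKM, so its choice as a member favoured a rise. That limit holds for these tests and for those of the ratio. WAC was 9.6, 10.1 and 9.83 FPKM in the controls, 9.71, 9.84 and 8.82 in siSIRT6, and 9.45, 9.7 and 8.41 in siKDM5C and passed neither test (-0.05 ± 0.06 SE, adjusted p = 0.51 and -0.09 ± 0.06 SE, adjusted p = 0.262). The ratio rose in siSIRT6 (1.07 ± 0.12 SE, adjusted p = 0.00135) and in siKDM5C (0.88 ± 0.12 SE, adjusted p = 0.00371).

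MRPL20-AS1 (chr1:1399522-1402046, plus strand) shows the reverse case, in which the sense gene moved. MRPL20, a gene of the mitochondrial ribosome, was 27.9, 25.5 and 28.7 FPKM in the controls, 18.3, 18.8 and 20.2 in siSIRT6, and 14.3, 12.2 and 14.3 in siKDM5C. It fell in siSIRT6 (-0.49 ± 0.08 SE, adjusted p = 0.00084) and in siKDM5C (-0.96 ± 0.08 SE, adjusted p = 2.10e-05). MRPL20-AS1 was 9.15, 9.59 and 10.3 FPKM in the controls, 9.41, 9.55 and 10.04 in siSIRT6, and 9.91, 8.62 and 9.4 in siKDM5C, with the groups overlapping and changes of -0.0016 ± 0.06 (SE, adjusted p = 0.986) and -0.05 ± 0.06 (SE, adjusted p = 0.527). The ratio rose by 0.51 ± 0.07 (SE, adjusted p = 0.0034) and 0.95 ± 0.07 (SE, adjusted p = 0.000175). The exons of the 2 genes share 139 bases, 5.50% of the antisense exons.

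PPP1R14B-AS1 and CD109-AS1 rose less than the genes they face. PPP1R14B-AS1 was 4.01, 4.45 and 4.16 FPKM in the controls, 5.15, 5.18 and 5.56 in siSIRT6, and 4.56, 5.09 and 5.31 in siKDM5C, and PPP1R14B, an inhibitor of protein phosphatase 1, was 14.5, 14.2 and 18.5 FPKM in the controls, 43.6, 41.3 and 39.8 in siSIRT6, and 59.9, 43.3 and 50.3 in siKDM5C. The knockdown libraries of both genes lay above their controls, and the ratio fell in siSIRT6 (-1.08 ± 0.18 SE, adjusted p = 0.0074) and in siKDM5C (-1.45 ± 0.18 SE, adjusted p = 0.00214). PPP1R14B-AS1 rose by 0.27 ± 0.06 (SE, adjusted p = 0.00703) and 0.20 ± 0.06 (SE, adjusted p = 0.0279), and the latter call was lost when any of control replicates 1 or 3, or siKDM5C replicates 2 or 3 was left out (adjusted p from 0.061 to 0.0936), and also with no filter on low values (adjusted p = 0.0508) and with only the compared groups fitted (adjusted p = 0.0691). CD109-AS1 was 3.65, 3.67 and 4.05 FPKM in the controls, 4.84, 5.01 and 5.16 in siSIRT6, and 5.28, 3.78 and 4.86 in siKDM5C, and CD109, a surface antigen, was 22.8, 23.5 and 20.5 FPKM in the controls, 48.1, 49 and 49 in siSIRT6, and 31.4, 36.4 and 28.5 in siKDM5C. In siSIRT6 CD109-AS1 rose by 0.33 ± 0.10 (SE, adjusted p = 0.0201), CD109 by 1.10 ± 0.09 (SE, adjusted p = 2.15e-05), and the ratio fell (-0.74 ± 0.19 SE, adjusted p = 0.0494). The CD109-AS1 call was lost when any of control replicates 1 or 2, or siSIRT6 replicates 2 or 3 was left out (adjusted p from 0.0544 to 0.0635). The ratio call was lost when any of control replicates 1, 2 or 3, or siSIRT6 replicates 1, 2 or 3, or siKDM5C replicate 3 was left out (adjusted p from 0.0508 to 0.143), and also with pairs limited to 3 FPKM in both genes (adjusted p = 0.0547).

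BSG-AS1, opposite the start of the gene of the surface protein basigin, was 5.53, 4.67 and 6.07 FPKM in the controls, 5.05, 5.57 and 5.37 in siSIRT6, and 3.996, 3.81 and 4.97 in siKDM5C. BSG was 95, 91.6 and 107 FPKM in the controls, 113, 116 and 119.93 in siSIRT6, and 125, 104 and 125 in siKDM5C. In siKDM5C BSG-AS1 was called lower (-0.29 ± 0.10 SE, adjusted p = 0.0439) and BSG higher (0.27 ± 0.09 SE, adjusted p = 0.0297), although siKDM5C and control libraries overlapped in both, and the ratio fell (-0.61 ± 0.10 SE, adjusted p = 0.00652). The call of BSG-AS1 was lost when any of control replicates 1 or 3, or siSIRT6 replicates 1, 2 or 3, or siKDM5C replicates 1 or 2 was left out (adjusted p from 0.0594 to 0.134), and also with median-of-ratios scaling (adjusted p = 0.0537) and with no filter on low values (adjusted p = 0.0927) and with only the compared groups fitted (adjusted p = 0.0887).

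ENO1-AS1 and ITFG2-AS1 complete the largest changes of the ratio in siKDM5C. ENO1-AS1 faces the start of the glycolytic gene ENO1 and was 3.49, 3.56 and 2.35 FPKM in the controls, 3.68, 4.54 and 4.89 in siSIRT6, and 4.71, 6.28 and 6.69 in siKDM5C, against 417, 406 and 456 FPKM in the controls, 401, 401 and 417 in siSIRT6, and 429, 376 and 430.04 in siKDM5C for ENO1. The siKDM5C libraries of ENO1-AS1 lay above its controls while those of ENO1 overlapped them, and the ratio rose (0.95 ± 0.23 SE, adjusted p = 0.037). This call was lost when any of control replicates 1 or 3, or siSIRT6 replicates 1, 2 or 3, or siKDM5C replicates 2 or 3 was left out (adjusted p from 0.0509 to 0.119), and also with only the compared groups fitted (adjusted p = 0.0896). ITFG2-AS1 was 3.003, 2.11 and 1.95 FPKM in the controls, 3.17, 2.96 and 2.9 in siSIRT6, and 2.11, 2.74 and 3.998 in siKDM5C, and its partner of longest overlap is FKBP4, a co-chaperone gene, at 12, 11.4 and 11.6 FPKM in the controls, 18.1, 18.2 and 19.6 in siSIRT6, and 28, 26.2 and 28.7 in siKDM5C. The groups overlapped for ITFG2-AS1 and not for FKBP4, and the ratio fell (-0.95 ± 0.22 SE, adjusted p = 0.034). Set against ITFG2, the gene it is named after, the change of the ratio was 0.60 with an adjusted p of 0.202, in the other direction. The call against FKBP4 was also lost when any of control replicates 1 or 2, or siSIRT6 replicates 1, 2 or 3, or siKDM5C replicates 1 or 2 was left out (adjusted p from 0.0522 to 0.111), and also with only the compared groups fitted (adjusted p = 0.0912).

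**Figure D5:**
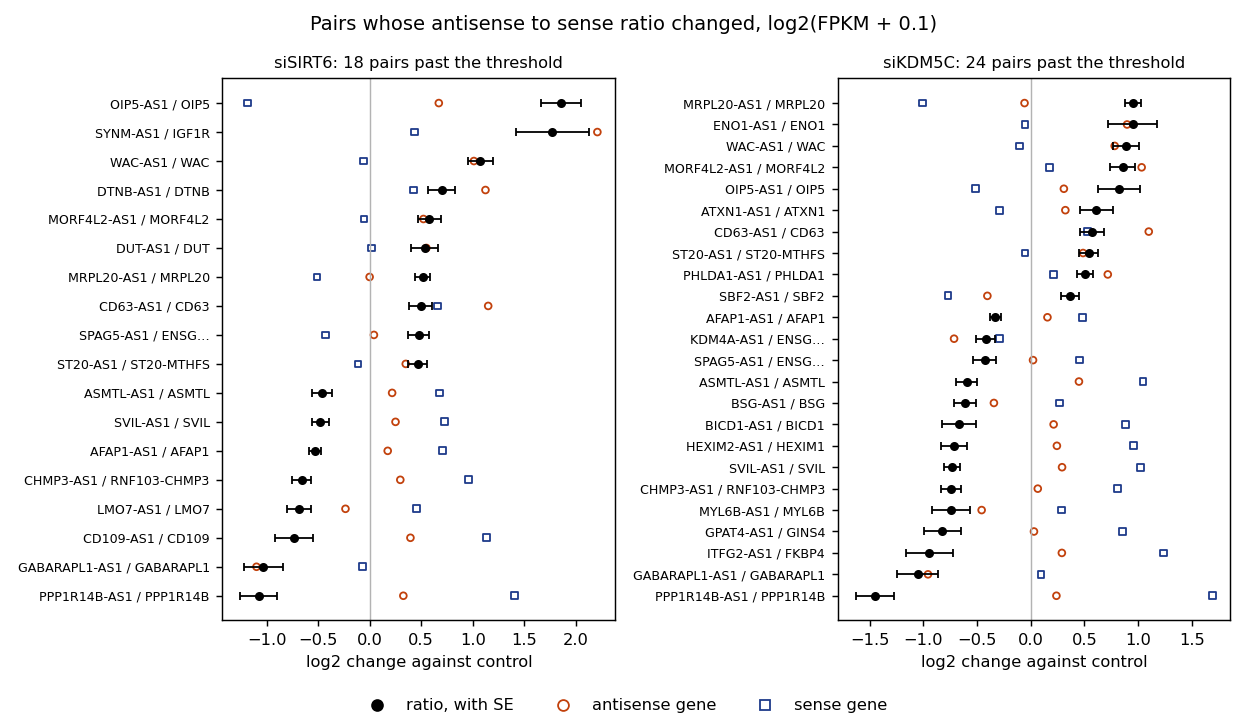
Pairs whose antisense to sense ratio changed in siSIRT6 (left, 18 pairs) and in siKDM5C (right, 24 pairs), with the log2 change of the ratio and its SE (black), of the antisense gene (orange circle) and of the sense gene (blue square), on the log2(FPKM + 0.1) scale. The black points run from -1.08 for PPP1R14B-AS1 to 1.86 for OIP5-AS1 in siSIRT6, and from -1.45 for PPP1R14B-AS1 to 0.95 for MRPL20-AS1 in siKDM5C.

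In 21 of the 310 pairs the sense gene was too low to be tested or, as for CDC42-AS1, had no FPKM value. Of these 21 antisense genes, 9 rose and 3 fell in siSIRT6, and 8 rose and 4 fell in siKDM5C. That is 57.1% called in each, beside 50.8% and 51.5% of all genes tested. FGD5-AS1 was 16.6, 17.3 and 15.5 FPKM in the controls, 21.6, 22.4 and 21.2 in siSIRT6, and 21.6, 21.5 and 18.7 in siKDM5C, with every knockdown library above every control (0.38 ± 0.07 SE, adjusted p = 0.00174 and 0.31 ± 0.07 SE, adjusted p = 0.00534), while FGD5 was at most 0.0128 FPKM. In 13 of the 21 a shorter overlap with another coding gene that was expressed could be found. For FGD5-AS1 this was NR2C2, which shares 3.02% of the FGD5-AS1 exon bases. NR2C2 had a mean of 7.48 FPKM in the controls, 6.30 in siSIRT6 and 6.75 in siKDM5C. NR2C2 fell in siSIRT6 (-0.215, adjusted p = 0.0284), where FGD5-AS1 rose, and did not pass the test in siKDM5C (-0.129, adjusted p = 0.147). CALCRL-AS1 was 9.3, 9.79 and 8.74 FPKM in the controls, 8.13, 7.23 and 7.41 in siSIRT6, and 18.2, 20.6 and 14.9 in siKDM5C, and TFPI, an inhibitor of coagulation that it overlaps, was 8.41, 8.38 and 7.2 FPKM in the controls, 5.12, 5.38 and 4.98 in siSIRT6, and 14.7, 17.4 and 12.8 in siKDM5C. In both the siKDM5C libraries were the highest and the siSIRT6 libraries the lowest. In siKDM5C CALCRL-AS1 rose by 0.87 ± 0.11 (SE, adjusted p = 0.000226) and TFPI by 0.82 ± 0.10 (SE, adjusted p = 0.000264). In siSIRT6 TFPI changed by -0.54 ± 0.10 (SE, adjusted p = 0.00246), and CALCRL-AS1 did not pass the test (-0.26 ± 0.11 SE, adjusted p = 0.0704). CDC42-AS1 was 1.6, 1.45 and 2.1 FPKM in the controls, 2.37, 2.13 and 2.4 in siSIRT6, and 4.29, 3.7 and 4.17 in siKDM5C and rose in siSIRT6 (0.29 ± 0.10 SE, adjusted p = 0.0336). It reached 3 FPKM in siKDM5C alone, which made it a member, so its log2 change of 0.90 there is a description with no test. The small GTPase gene CDC42, with which it shares 3.19% of its exon bases, was 19.3, 19.8 and 21.2 FPKM in the controls, 14.4, 14.2 and 14.7 in siSIRT6, and 20.8, 19.7 and 17 in siKDM5C and fell in siSIRT6 (-0.46 ± 0.07 SE, adjusted p = 0.00117), with no call in siKDM5C (-0.07 ± 0.07 SE, adjusted p = 0.456). These 3 antisense genes fall outside the naming rule and were picked with their values known.

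DHX9-AS1 is not in GENCODE release 29, and HILPDA-AS1 has no partner there. DHX9-AS1 was 14, 12.2 and 10.02 FPKM in the controls, 12.4, 12.2 and 12.6 in siSIRT6, and 9.74, 16.6 and 14 in siKDM5C, with overlapping groups and no call (0.05 ± 0.17 SE, adjusted p = 0.841 and 0.13 ± 0.17 SE, adjusted p = 0.567). HILPDA-AS1 was 25.7, 22.9 and 27.7 FPKM in the controls, 21.3, 21.2 and 23.2 in siSIRT6, and 21.4, 19.2 and 21 in siKDM5C and fell in siKDM5C (-0.29 ± 0.08 SE, adjusted p = 0.0125). They were named because they are the members without a partner, beside TGFB2-AS1 and GAS5-AS1.

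Other antisense and related genes give the setting, beside 50.8% of all genes tested called in siSIRT6 and 51.5% in siKDM5C. Of 221 further -AS1 genes tested, 44 rose and 34 fell in siSIRT6, and 54 rose and 32 fell in siKDM5C (35.3% and 38.9% called). Of 34 genes ending in -AS2 to -AS4, 8 rose and 7 fell in siSIRT6, and 11 rose and 4 fell in siKDM5C (44.1% called in each). Of 109 genes ending in -DT, which name divergent transcripts, 18 rose and 15 fell in siSIRT6, and 29 rose and 21 fell in siKDM5C (30.3% and 45.9%). Of the 287 sense partners 88 rose and 93 fell in siSIRT6, and 107 rose and 85 fell in siKDM5C (63.1% and 66.9%), and of all protein-coding genes tested 55.9% and 56.4% were called.

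A chosen list of genes that trim, cut, edit or bind nuclear or double-stranded RNA held 29 tested genes. In siSIRT6 2 of them rose and 11 fell, with a median change of -0.20, and in siKDM5C 2 rose and 14 fell, with a median of -0.18, beside -0.05 and -0.02 over all genes tested. The shares called in either direction, 44.8% and 55.2%, lie near the 50.8% and 51.5% of all genes tested. Falls outnumbered rises in the list, and this difference by direction was not tested. Of all genes tested 23.9% rose and 26.9% fell in siSIRT6, and 25.6% rose and 25.9% fell in siKDM5C. Among the falls in both was ZCCHC8, a subunit of the nuclear exosome targeting complex, with a mean of 4.30 ± 0.256 FPKM in the controls (SD, n = 3), 2.28 ± 0.180 after siSIRT6 and 1.98 ± 0.142 after siKDM5C. DROSHA, which cuts hairpins of microRNA precursors, rose from 4.67 ± 0.0419 FPKM to 7.87 ± 0.318 in siSIRT6 and 8.20 ± 0.685 in siKDM5C. AGO2, which carries small RNAs, fell in siSIRT6 from 12.7 ± 1.06 to 6.41 ± 0.247 and was 11.2 ± 1.03 in siKDM5C, where it did not pass the test. The part of these genes in the antisense levels was not tested. ZCCHC8, DROSHA and AGO2 were also picked with their values known.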

How the data were processed

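Per the labels, RNA was extracted with Trizol and libraries were made with the TruSeq Stranded mRNA kit. The deposited files hold 1 FPKM value per gene and library, made by the authors. Per the submitters' processing notes, Trimmomatic, HISAT2, Cufflinks, HTSeq and hg38 were used. Versions, roles and the strand of counting were not given in the sources used here. Members, lists and rules were chosen with earlier results of these data known.

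Symbols came from a gene name table (36659 of 36753 identifiers) and positions from GENCODE release 29. The 16135 genes that reached 1 FPKM in 3 or more libraries entered limma 3.58.1 (R 4.3.3) as log2(FPKM + 1), with trend on, in 1 fit of all 9 libraries, two-sided, with Benjamini-Hochberg adjustment at 0.05. Changes on this scale are smaller than FPKM ratios for low genes. An antisense change beside a sense change on it therefore does not show which gene moved further. The ratio test used limma on the difference of log2(FPKM + 0.1) between antisense and sense over 1797 pairs. Whole reads were recovered from FPKM steps for 100% of genes, with the annotated exon length for 229 members and another length for 85, whose shared exon percentages are approximate. The scripts were tested on simulated data.

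Named were, per knockdown, the 8 largest called rises and the 8 largest called falls whose 3 libraries all lie on 1 side of the controls, the 6 largest called ratio changes, up to 4 pairs called in opposite directions, up to 4 members called oppositely in the 2 knockdowns, the 5 highest members, the 3 nearest the limit on each side, and both targets. Exceptions are marked where they occur. Alternatives were tried for scaling, the filter, the pseudocount, the choice of partner, the samples fitted and the replicates.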

Additional observations from a re-analysis of the deposited data

Results flagged for a closer look

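In 6 antisense genes, called in opposite directions against control, the effects of the 2 knockdowns also differed when compared directly. The genes were picked by those opposite calls from the same fit, so a difference between the knockdowns followed from their choice. The adjusted p-values of the difference are therefore no added support. The difference, siSIRT6 minus siKDM5C on the log2(FPKM + 1) scale, was -1.13 for PRC1-AS1 (adjusted p = 2.42e-06), -0.94 for TM4SF19-AS1 (adjusted p = 0.000391), -0.80 for DLGAP4-AS1 (adjusted p = 1.99e-05), and -0.67 for DNMBP-AS1 (adjusted p = 2.20e-05), by limma with Benjamini-Hochberg adjustment. It was 0.70 for BMF-AS1 (adjusted p = 5.09e-05) and 0.63 for ELF3-AS1 (adjusted p = 6.51e-05). In each of the first 4 all 3 siSIRT6 libraries were below and all 3 siKDM5C libraries above the controls. For TM4SF19-AS1 the choice as a member also favoured a fall in siSIRT6.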

How the results depend on the processing

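The counts of members called against control stayed within 1.5 times under every alternative run, between 106 and 175 in siSIRT6 and between 106 and 156 in siKDM5C. The 106 in each knockdown is a count among the 221 members at 3 FPKM in all 9 libraries, not among 314. Between the knockdowns, 108 of 314 members (34.4%) were called, and 67 of those 221 (30.3%, 33 higher and 34 lower in siSIRT6). The set of 221 was chosen after seeing the data. Leaving out single libraries gave 73 to 115 (34 to 60 and 39 to 56). The ratio calls were less settled. In siSIRT6, 18 became 33 (22 rising) with partners taken by symbol, and 11 to 22 when single libraries were left out (4 to 14 rising and 5 to 8 falling). In siKDM5C, 24 became 15 (6 rising and 9 falling) when only the groups compared were fitted, 18 rose with partners by symbol, and single libraries left out gave 16 to 21 (6 to 10 rising and 8 to 13 falling). The correlation of antisense and sense changes was 0.804 in siSIRT6 and 0.814 in siKDM5C with partners by symbol, 0.861 and 0.867 among members at 3 FPKM in all 9 libraries, 0.879 and 0.878 with a mean of at least 50 reads (both chosen after seeing the data), and 0.821 to 0.858 and 0.839 to 0.855 without single libraries. The cause of these shifts was not tested. For the named genes, 64 of 960 checks of a change ended the call and none turned it, in 10 of 64 results. Of 240 checks of a ratio, 41 ended the call and 1 turned it, which was ITFG2-AS1 in siKDM5C with the partner by symbol (0.60). Both sets of checks include contrasts of SYNM-AS1, IRF1-AS1 or GABARAPL1-AS1 that are described above with no test. Of the 41, 5 were of SYNM-AS1 and 1 of GABARAPL1-AS1, all in siSIRT6.

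Replicate numbers do not pair the libraries (correlations of deviations between same-numbered libraries from -0.229 to 0.252). With the replicate number as a block, 153 members were called in siSIRT6, 153 in siKDM5C and 110 between the knockdowns, and 17 and 20 ratios. Calls of named genes not made with the block were VIM-AS1 in siSIRT6 (adjusted p = 0.0791) and siKDM5C (0.0696), ADNP-AS1 in siKDM5C (0.0663), and the siKDM5C ratios of OIP5-AS1 (0.0672), ENO1-AS1 (0.0552) and ITFG2-AS1 (0.0843). Depth limits the genes of few reads: 23 members had a mean under 50.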
